A study of Mus musculus with 6 samples.

Results

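The 39 Hox genes of the mouse are the subject here. They were chosen by name, as all genes whose symbol is Hox followed by the cluster letter a, b, c or d and a number, with antisense and opposite-strand RNAs left out. They make up 39 of the 43432 gene identifiers in the count table, with 11 members in cluster A, 10 in cluster B, 9 in cluster C and 9 in cluster D. The group was singled out because earlier results of these data had shown Hoxa13 to differ between libraries, so the stressed and resting values of its members are given as a description.

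RNA of the colon was sequenced from 6 wild-type mice, with 1 poly(A) library per mouse. Stressed mice 10, 11 and 13 had their colon taken right after episode 3 of restraint, each episode lasting 30 min. Resting mice 15, 17 and 19 form the other group; their records carry the same restraint note, so the grouping follows the treatment label. Not given in the sources used here are strain, sex, age and the stretch of colon taken. The labels name a different mouse for each library, so each library is 1 replicate. The stressed libraries held 19819267, 18584545 and 16575181 counts and the resting libraries 16425525, 16735416 and 18209033 counts. Levels are given as CPM, the usual depth-normalised count, with library totals scaled by edgeR's TMM factors. A gene with 0 counts could have been present at up to 0.151 to 0.183 CPM. This is the level of 3 counts in these libraries before the TMM scaling. That limit, like the intervals of shares given further on, covers counting error only.

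Hox genes encode homeodomain transcription factors that give cells along the body axis their positional identity. Within a cluster the genes lie in the order in which they are used along the axis: low numbers act towards the head, and high numbers towards the tail. Genes with the same number in different clusters are copies of 1 ancestral gene, called paralogues. In the gut they pattern the mesenchyme and epithelium of successive segments during development, and adult intestine keeps expressing many of them. In the mm10 build, the stretch of cluster A from Hoxa2 to Hoxa13 spans chromosome 6 from 52162417 to 52260880 on the minus strand. Cluster B lies on chromosome 11 from 96194316 to 96368256, cluster C on chromosome 15 from 102921103 to 103036852, and cluster D on chromosome 2 from 74668310 to 74765142, all on the plus strand.

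The libraries carried a marker of intestine. Cdx2, a homeobox gene that maintains intestinal identity, averaged 361 ± 21.3 CPM in the stressed group and 336 ± 26.9 CPM in the resting group (SD, n = 3 each). The 8 markers of anal squamous epithelium summed to 0.971 to 1.28 CPM in the stressed group and 0.552 to 1.31 CPM in the resting group. Pbsn, which marks prostate epithelium, had no count in any of the 6 libraries, and Upk2, a uroplakin of the bladder, had none in 5. The 8 genes listed for bladder and prostate epithelium nonetheless summed to 259.9 to 279.2 CPM in the stressed group and 252.3 to 270.5 CPM in the resting group. Most of this came from the keratin gene Krt7, at 139.9 to 155.1 CPM in the stressed group and 120.3 to 134.0 CPM in the resting group, and from Foxa1, a forkhead factor, at 100.5 to 111.7 CPM in the stressed group and 118.5 to 125.4 CPM in the resting group.

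The homeobox is the stretch that encodes the DNA-binding homeodomain, and its likeness between paralogues matters for a count table because reads from near-identical copies could be split between genes. How the counting treated reads that match several genes is not stated, and such splitting was not tested. The homeobox was found in the annotated transcripts of all 39 members. Between paralogues it was 67.22% to 93.89% identical in base sequence over 42 pairs. Over the longest annotated transcripts of a pair, on either strand, the longest run of identical bases was 12 to 50. The group 13 genes are shown because they stand at the tail end of each cluster and because Hoxa13 varied most between libraries. Each line holds the 180 bases of the homeobox, 5′ to 3′, from GENCODE M21 transcripts; in Hoxb13, Hoxc13 and Hoxd13 capitals mark bases that differ from Hoxa13, and in Hoxa13 they mark the 82 positions at which at least 1 of the other genes differs.

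Hoxa13: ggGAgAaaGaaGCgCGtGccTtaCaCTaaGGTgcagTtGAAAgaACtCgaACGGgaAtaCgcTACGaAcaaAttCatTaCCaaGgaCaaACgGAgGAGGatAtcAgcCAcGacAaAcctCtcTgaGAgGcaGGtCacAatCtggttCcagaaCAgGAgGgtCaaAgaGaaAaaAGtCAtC
Hoxb13: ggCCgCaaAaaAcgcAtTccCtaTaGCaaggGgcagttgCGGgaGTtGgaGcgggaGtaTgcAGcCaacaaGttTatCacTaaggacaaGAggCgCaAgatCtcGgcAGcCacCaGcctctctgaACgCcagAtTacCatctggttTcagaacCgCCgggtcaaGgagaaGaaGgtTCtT
Hoxc13: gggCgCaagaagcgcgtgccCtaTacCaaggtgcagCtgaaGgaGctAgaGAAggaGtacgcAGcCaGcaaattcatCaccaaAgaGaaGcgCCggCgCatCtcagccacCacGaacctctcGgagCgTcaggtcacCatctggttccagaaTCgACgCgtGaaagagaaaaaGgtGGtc
Hoxd13: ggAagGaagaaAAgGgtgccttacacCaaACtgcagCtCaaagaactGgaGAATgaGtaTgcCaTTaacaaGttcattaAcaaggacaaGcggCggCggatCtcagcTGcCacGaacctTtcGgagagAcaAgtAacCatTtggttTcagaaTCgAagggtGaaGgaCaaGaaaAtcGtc

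The Hoxa13 homeobox was 68.89% identical to that of Hoxb13, 77.22% to that of Hoxc13 and 73.89% to that of Hoxd13. The longest run of identical bases that the longest Hoxa13 transcript shared with that of any of these was 17. To the homeoboxes of the 35 members of the other groups the Hoxa13 homeobox was 47.78% to 60.56% identical. The longest run shared by the transcripts of any paralogue pair, 50 bases, was that of Hoxb9 with Hoxc9.

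Cluster B supplied most of the Hox RNA of the colon in every library. Of all counts on Hox genes, cluster B held 80.1%, 82.3% and 84.1% in stressed mice 10, 11 and 13, against 69.5%, 69.6% and 81.6% in resting mice 15, 17 and 19. Cluster A held 12.8%, 10.1% and 7.54% in the stressed mice, against 24.4%, 23.0% and 11.7% in the resting mice. Cluster D held 5.53% to 7.15% and cluster C 0.408% to 1.18% over the 6 libraries. The 95% Wilson intervals of the cluster A share overlapped between resting mice 15 (23.6% to 25.2%) and 17 (22.2% to 23.8%), and between stressed mouse 10 (12.2% to 13.4%) and resting mouse 19 (11.1% to 12.3%).

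To compare genes with each other, CPM were divided by the length of their merged exons. Hoxb6 had the highest level, at 69.3 ± 5.97 CPM per kb (SD over the 6 libraries), followed by Hoxb9 at 51.4 ± 1.14 CPM per kb. Hoxb7 (27.1 ± 2.53 CPM per kb), Hoxb8 (20.8 ± 1.83), Hoxb5 (17.9 ± 1.67) and Hoxb4 (16.37 ± 1.64) came next. These 6 genes stood in this order in 6 of 6 libraries, and each was above every member of the other clusters. Outside cluster B the order was less settled: Hoxa7, at 7.67 ± 4.04 CPM per kb, was above Hoxa5, at 6.53 ± 2.35, in 5 of 6 libraries, and Hoxd8, at 4.85 ± 0.668, was above Hoxb3, at 4.44 ± 0.734, in 3 of 6. In each of the 4 clusters the same 2 genes were highest when the longest transcript was used for the length in place of merged exons.

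**Figure D1:**
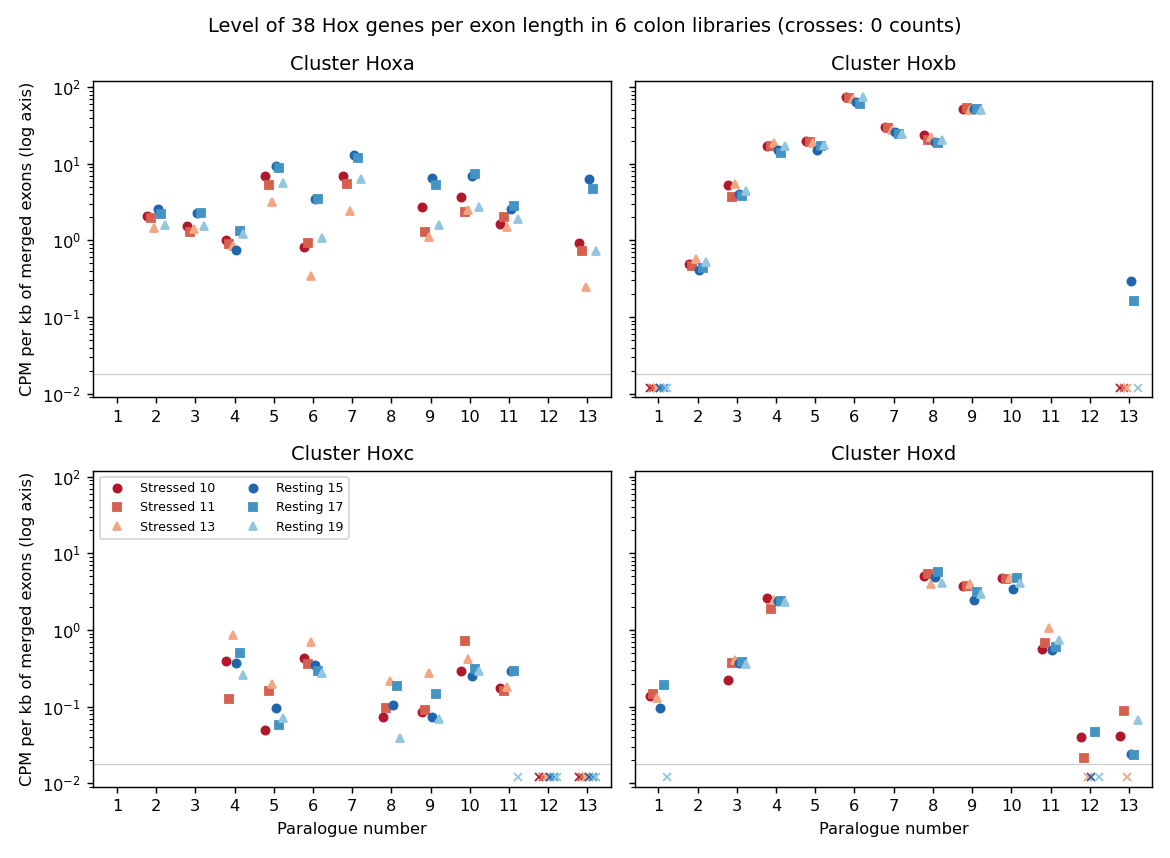
Level of 38 Hox genes in CPM per kb of merged exons (log axis) against paralogue number, with 1 panel per cluster and 1 point per library; crosses below the grey line stand for 0 counts. Hoxb4 to Hoxb9 form the upper band at 16.37 to 69.3 CPM per kb on average, the Hoxc genes lie below 1 CPM per kb, and the points of Hoxa6, Hoxa9 and Hoxa13 spread far more than those of Hoxb9.

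Read by paralogue number, the cluster B copy was the highest for every number from 3 to 9, and it was above the next copy in 6 of 6 libraries for each of them. The gap was widest for number 6, where Hoxb6 stood at 69.3 CPM per kb and the next copy, Hoxa6, at 1.68. For number 9, Hoxb9 stood at 51.4 and Hoxd9 at 3.35 CPM per kb. Beyond number 9 no cluster B copy was prominent: the mouse has no Hoxb10, Hoxb11 or Hoxb12, and Hoxb13 was barely detected. Hoxd10 (4.4 CPM per kb) and Hoxa10 (4.23) were close, with Hoxd10 the higher in 4 of 6 libraries. Hoxa11 (2.07) was above Hoxd11 (0.699) in 6 of 6, and Hoxa13 (2.26) was above Hoxb13 (0.0762) in 6 of 6.

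Low or absent members were found at both ends of the clusters. Hoxb1, which acts in the hindbrain, and Hoxc12 and Hoxc13, the latest acting genes of cluster C, had no count in any library. A mean of at least 1 CPM was reached by 25 members, 10 in cluster A, 8 in cluster B, 6 in cluster D and 1 in cluster C, and 14 were below it. Hoxd13, which patterns the distal limb and anal sphincter, had 2, 4 and 0 counts in stressed animals 10, 11 and 13, against 1, 1 and 3 counts in resting mice 15, 17 and 19. Hoxd12 had at most 2 counts in a library, and the low members Hoxd1, Hoxc5, Hoxc8, Hoxc9 and Hoxc11, at most 11. Among these Hoxc11 had 7, 6 and 6 counts in the stressed mice, against 10, 10 and 0 counts in the resting mice. These genes did not pass the filter and were not tested.

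The comparison of stressed with resting colon asks how repeated restraint bears on the RNA of the tissue. It was tested with edgeR's quasi-likelihood test over all genes that pass its filter on low counts. Of the 39 Hox genes 27 passed that filter, 10 in cluster A, 8 in cluster B, 3 in cluster C and 6 in cluster D, and 12 did not. None of the 27 had an adjusted p under 0.05, where 5 of all 16119 tested genes, or 0.0310%, did (0.0248% higher and 0.00620% lower); the lowest adjusted p of a Hox gene was 0.449, for Hoxa13 (edgeR, Benjamini-Hochberg). At an unadjusted edgeR p under 0.05 there were 13 of 27 Hox genes, 5 higher and 8 lower in stressed mice, against 6.92% of all tested genes. DESeq2 and limma-voom also called 0 of them past an adjusted p of 0.05, where they called 0.347% and 0.0186% of all genes they tested. Without the filter, edgeR called 5 Hox genes, all of them Hoxa genes lower in stressed mice, and 151 of 25666 genes in all, or 0.588%. The set was picked with the same contrast in view, so nothing is read from these counts.

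The clusters differed in sign. All 10 tested genes of cluster A had log2 fold changes (stressed over resting) below 0, from -2.60 to -0.20 with a median of -0.81. All 8 of cluster B were above 0, from 0.01 to 0.23 with a median of 0.19. All 3 of cluster C were above 0 with a median of 0.69, and cluster D had 3 above and 3 below 0 with a median of 0.10. The median of all 27 was 0.01, beside 0.00 for the 16119 tested genes, of which 7906 were above 0 and 8213 below. In bulk tissue, fewer cells of a type and less RNA per cell cannot be told apart.

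**Figure D2:**
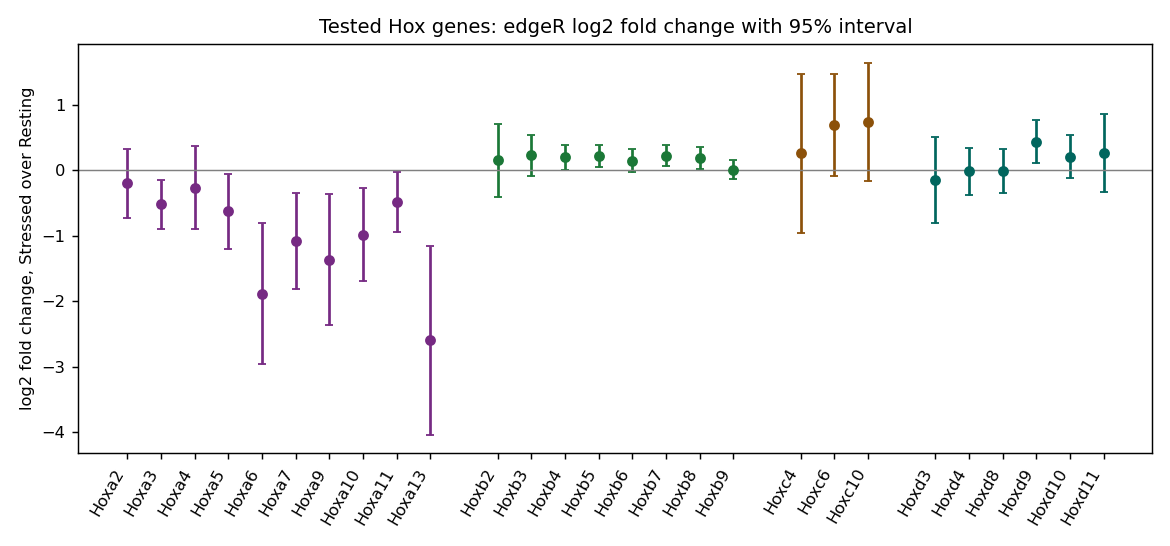
Log2 fold change of each tested Hox gene, stressed over resting, from the edgeR fit, with bars for the 95% interval and genes ordered by cluster and number. The cluster A genes lie below 0 with the widest bars at Hoxa6 and Hoxa13, the cluster B genes lie just above 0 with narrow bars, and no gene has an adjusted p under 0.05.

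Hoxa13 had the widest spread of the Hox genes. It encodes a homeodomain factor needed for the hindgut end, the genital tubercle and the digits, and lies on chromosome 6 from 52257694 to 52260880 (ENSMUSG00000038203), with no annotated exon of another gene over its own. Its level was 2.25, 1.80 and 0.607 CPM in stressed animals 10, 11 and 13, from 44, 33 and 10 counts, against 15.5, 11.6 and 1.82 CPM in resting mice 15, 17 and 19, from 259, 198 and 33 counts. Resting mice 15 and 17 were thus far above the other 4 libraries, and resting mouse 19 lay inside the range of the stressed mice, so that the groups overlapped. The means were 1.55 ± 0.85 CPM in the stressed group and 9.63 ± 7.03 CPM in the resting group (SD, n = 3 each). The log2 fold change was -2.60 ± 0.65 (SE; 95% interval -4.04 to -1.15; edgeR adjusted p = 0.449). Without resting mouse 19 it was -3.09 with an edgeR adjusted p of 0.0116, in a fit that called 0.0367% of all tested genes. Over the 6 fits that leave out 1 mouse it ran from -3.09 to -2.08, with edgeR adjusted p-values of 0.0116 to 0.93.

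Over the 6 libraries the SD of log2 CPM of Hoxa13 was 1.72, which ranks 21 of 16119 tested genes from the widest. Counting error alone would give about 0.147 at its mean of 96.2 counts. It would give more in the libraries other than resting mice 15 and 17, which held only 10 to 44 counts. Within cluster A, Hoxa13 held 2.77%, 2.97% and 1.37% of the cluster's counts in stressed animals 10, 11 and 13, against 9.74%, 8.02% and 2.68% in resting mice 15, 17 and 19. The Wilson intervals of resting mice 15 (8.67% to 10.9%) and 17 (7.01% to 9.16%) did not touch those of the other 4 libraries, whose upper ends reached 4.14%. These intervals cover counting error only, not the spread between mice. Mice 15 and 17 were already known from earlier results as the high libraries, so the gap is a description.

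Hoxb13, the cluster B paralogue that regulates prostate epithelium and the end of axis growth, had no count in the stressed mice. It had 11, 6 and 0 counts in resting mice 15, 17 and 19, so its few reads fell in the same libraries in which Hoxa13 was high. Hoxb13 did not pass the filter and was not tested. Summed over the 4 group 13 genes, the level was 2.36, 2.01 and 0.607 CPM in stressed animals 10, 11 and 13, against 16.2, 12.0 and 1.99 CPM in resting mice 15, 17 and 19.

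Hoxa9, Hoxa10 and Hoxa11 belong to the same tail end of the cluster. Hoxa9, known for its part in blood stem cells and leukaemia, was at 15.3, 7.13 and 6.19 CPM in stressed animals 10, 11 and 13, against 36.3, 29.3 and 8.95 CPM in resting mice 15, 17 and 19. The log2 fold change was -1.37 ± 0.45 (SE; edgeR adjusted p = 0.589). As for Hoxa13, resting mice 15 and 17 were the high libraries, and resting mouse 19 was below stressed mouse 10. Hoxa10, which patterns the uterus and lumbar vertebrae, was at 11.9, 7.57 and 8.19 CPM in stressed animals 10, 11 and 13, against 22.4, 24.0 and 8.78 CPM in resting mice 15, 17 and 19 (log2 fold change -0.99 ± 0.32, edgeR adjusted p = 0.580). Hoxa11, needed for the forearm and the uterus, averaged 3.94 ± 0.627 CPM in the stressed group and 5.52 ± 1.08 CPM in the resting group, and its log2 fold change was -0.48. About 35.0% of its exon length is overlapped on the other strand by Hoxa11os, and whether the counting used strand is not stated.

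The middle genes of cluster A differed in level and were also highest in resting mice 15 and 17. Hoxa7, the highest Hoxa gene per length, was at 19.83, 15.5 and 6.92 CPM in stressed animals 10, 11 and 13, against 37.7, 33.9 and 18.4 CPM in resting mice 15, 17 and 19. Its log2 fold change was -1.08 ± 0.33 (SE; edgeR adjusted p = 0.545). Stressed mouse 13 was the lowest library by a wide gap, and resting mouse 19 was just below stressed mouse 10. About 20.4% of the exon length of Hoxa7 is overlapped on the other strand by Hoxaas3. Hoxa6 was at 0.717, 0.816 and 0.303 CPM in the stressed mice, against 3.05, 2.99 and 0.939 CPM in the resting mice (log2 fold change -1.89 ± 0.49, edgeR adjusted p = 0.461). These levels came from 14, 15 and 5 counts in the stressed mice, against 51, 51 and 17 counts in the resting mice. Hoxa6 was the 1 tested Hoxa gene whose groups did not overlap, by a narrow margin between stressed mouse 11 and resting mouse 19.

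Hoxa5, which patterns the lung, the stomach and the gut mesenchyme, was at 12.9, 9.91 and 5.95 CPM in stressed animals 10, 11 and 13, against 17.7, 16.5 and 10.5 CPM in resting mice 15, 17 and 19. The log2 fold change was -0.63 ± 0.26 (SE; edgeR adjusted p = 0.671). Again mice 15 and 17 led, and stressed mouse 13 was lowest. Hoxa4 was the exception in cluster A. It averaged 1.45 ± 0.129 CPM in the stressed group and 1.75 ± 0.486 CPM in the resting group, and resting mouse 15, the highest library for most Hoxa genes, was its lowest at 1.19 CPM from 20 counts.

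At the head end of the cluster the libraries lay closer together. Hoxa3, which directs the formation of thymus and parathyroid, was at 8.48 ± 0.802 CPM in the stressed group and 12.2 ± 2.63 CPM in the resting group (log2 fold change -0.52 ± 0.17, edgeR adjusted p = 0.582). Hoxa2, which patterns the hindbrain and middle ear, was at 3.26 ± 0.627 CPM in the stressed group and 3.76 ± 0.895 CPM in the resting group (log2 fold change -0.20 ± 0.24). About 25.4% of the exon length of Hoxa3 is overlapped on the other strand by other annotated RNAs.

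**Figure D3:**
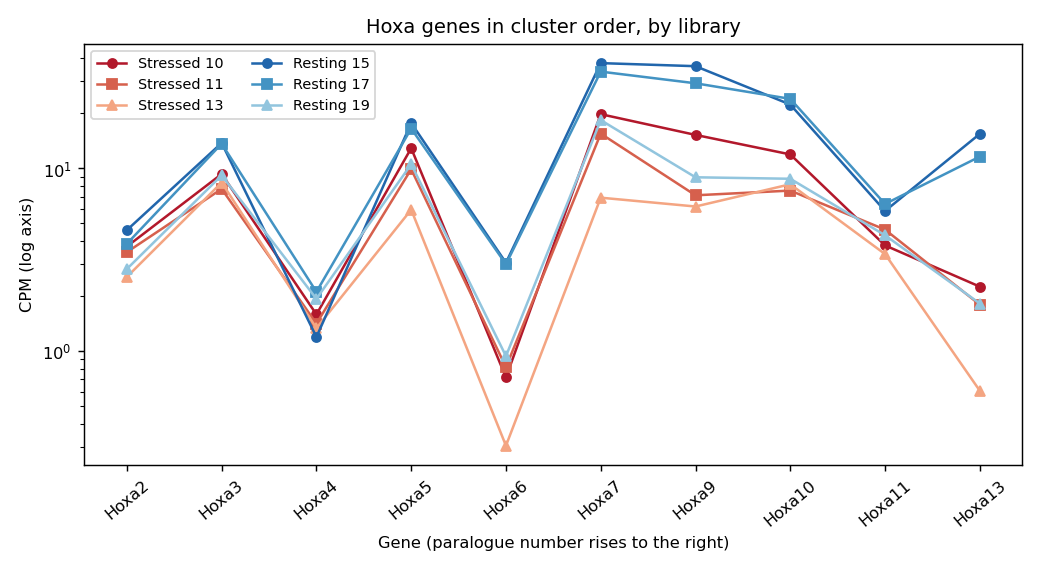
CPM of the 10 tested Hoxa genes (log axis) in cluster order, with 1 line per library. The lines of resting mice 15 and 17 run above the others from Hoxa5 onwards and part most at Hoxa13, at 15.5 and 11.6 CPM, while resting mouse 19 runs within the range of the stressed mice at 8 of the 10 genes and above it at Hoxa4 and Hoxa6.

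Along the cluster, the differences between libraries grew towards the tail end. Summed over Hoxa2 and Hoxa3, the level was 13.1, 11.2 and 10.9 CPM in stressed animals 10, 11 and 13, against 18.4, 17.5 and 12.0 CPM in resting mice 15, 17 and 19. Over Hoxa4 to Hoxa7 it was 35.0, 27.6 and 14.5 CPM in the stressed mice, against 59.7, 55.5 and 31.8 CPM in the resting mice. Over Hoxa9 to Hoxa13 it was 33.2, 21.1 and 18.4 CPM in the stressed mice, against 80.01, 71.3 and 23.9 CPM in the resting mice. The log2 ratio of the group means was -0.44, -0.93 and -1.27 in these 3 stretches, and the highest library was 1.68, 4.12 and 4.35 times the lowest. Single genes did not follow this gene by gene, since Hoxa6, with 5 counts in its lowest library, varied by 10.04 times between libraries and Hoxa11 by 1.88 times. Resting mice 15 and 17 were both above the other 4 libraries for 9 of 10 tested Hoxa genes, and for 8.52% of all tested genes; they had been noted as the high libraries in earlier results, so this count describes the set. For 8 of 10, resting mouse 19 lay within the range of the stressed mice.

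**Figure D4:**
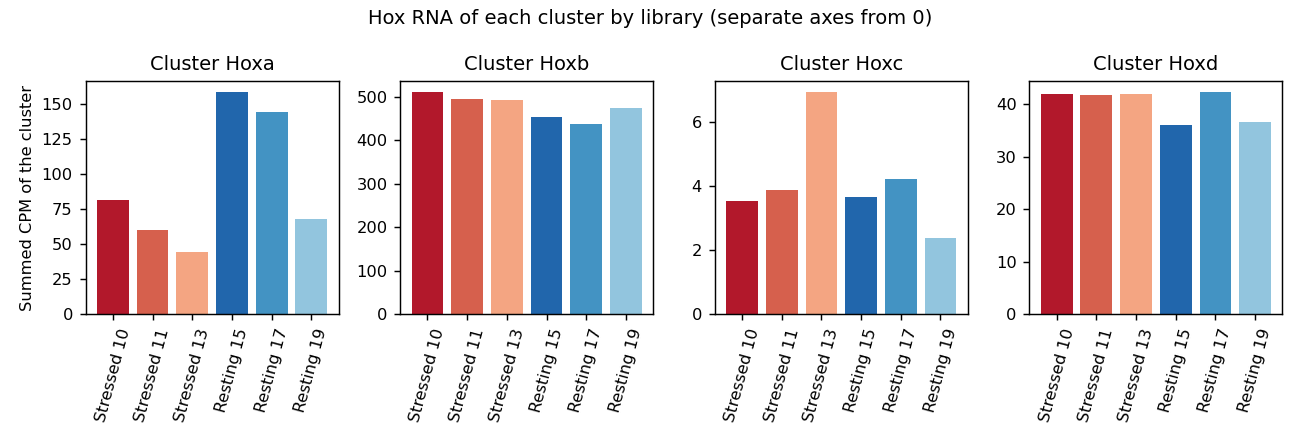
Summed CPM of the members of each cluster in each library, with 1 bar per library and a separate axis from 0 in each panel. Cluster A runs from 44.2 to 158.8 CPM with resting mice 15 and 17 highest, cluster B from 437.5 to 511.2 CPM with all 3 stressed mice above all 3 resting mice, cluster C reaches 6.92 CPM in stressed mouse 13, and cluster D runs from 36.1 to 42.3 CPM with resting mouse 17 highest.

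Cluster B was higher in the stressed mice by a small margin. Its summed level was 511.2, 494.5 and 493.0 CPM in stressed animals 10, 11 and 13, against 453.1, 437.5 and 475.5 CPM in resting mice 15, 17 and 19. The groups did not overlap, and the ratio of the means was 0.13 on the log2 scale. Cluster A ran the other way, at 81.5, 60.5 and 44.2 CPM in the stressed mice, against 158.8, 144.8 and 68.0 CPM in the resting mice, a log2 ratio of -0.997. The sum over all 39 genes was 638.3, 600.7 and 586.0 CPM in the stressed mice, against 651.6, 628.8 and 582.4 CPM in the resting mice, so total Hox RNA varied by 1.12 times between the extreme libraries while cluster A varied by 3.59 times.

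Groups did not overlap for 6 of the 27 tested Hox genes, 5 higher and 1 lower in stressed mice, against 12.7% of all tested genes (6.14% higher and 6.57% lower). Among them were the neighbours Hoxb5, Hoxb7 and Hoxb8. Hoxb5, which regulates Ret in the neural crest that builds the enteric nervous system, was at 54.6, 53.6 and 52.3 CPM in stressed animals 10, 11 and 13, against 42.2, 47.6 and 48.2 CPM in resting mice 15, 17 and 19 (log2 fold change 0.22 ± 0.07, edgeR adjusted p = 0.589). Hoxb7 was at 46.6, 45.6 and 42.7 CPM in the stressed mice, against 40.7, 37.6 and 37.4 CPM in the resting mice (0.22 ± 0.07, edgeR adjusted p = 0.580). Hoxb8, which acts in the spinal cord and in blood progenitors, was at 62.3, 54.4 and 58.1 CPM in the stressed mice, against 51.4, 49.0 and 53.2 CPM in the resting mice (0.19 ± 0.07, edgeR adjusted p = 0.654). In each of the 3 genes the lowest stressed library stood only a few CPM above the highest resting one.

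Hoxb6, the highest Hox gene per length, was at 147.5, 142.7 and 138.7 CPM in stressed animals 10, 11 and 13, against 126.1, 117.5 and 143.8 CPM in resting mice 15, 17 and 19, and the groups overlapped through mouse 19 (log2 fold change 0.15 ± 0.08, edgeR adjusted p = 0.764). Hoxb4, used as a regulator of blood stem cells, averaged 44.9 ± 2.10 CPM in the stressed group and 39.1 ± 3.89 CPM in the resting group (0.20 ± 0.09). Hoxb3 averaged 20.4 ± 3.998 CPM in the stressed group and 17.4 ± 1.22 CPM in the resting group, and Hoxb2 1.78 ± 0.199 CPM among stressed and 1.59 ± 0.204 CPM among resting mice. Of the exon length of Hoxb3, 52.9% is overlapped on the other strand by Hoxb3os, as is 27.3% of that of Hoxb2.

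Hoxb9 was the steadiest Hox gene. It lies on chromosome 11 from 96271457 to 96276595 (ENSMUSG00000020875) and acts with its paralogues in the thoracic skeleton and mammary gland. Its level was 132.7, 136.5 and 129.1 CPM in stressed animals 10, 11 and 13, against 134.6, 132.3 and 129.1 CPM in resting mice 15, 17 and 19. The log2 fold change was 0.01 with a 95% interval of -0.13 to 0.15 (edgeR adjusted p = 0.986). The SD of its log2 CPM over the 6 libraries was 0.0320, close to the 0.0298 that counting alone would give at its mean of 2346 counts, and ranked 16027 of 16119 from the widest. Hoxa9, its paralogue, ranked 93.

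The sum of cluster D was 42.0, 41.8 and 41.9 CPM in stressed animals 10, 11 and 13, against 36.1, 42.3 and 36.6 CPM in resting mice 15, 17 and 19. Its log2 ratio of 0.13 and its 1.17-fold range between the extreme libraries equalled those of cluster B to these digits, but resting mouse 17 stood above all 3 stressed mice. Over its tail end, the members numbered 9 to 13, the sum was 19.2, 19.6 and 21.7 CPM in the stressed mice, against 13.9, 17.9 and 17.1 CPM in the resting mice, with no overlap and a log2 ratio of 0.31. The 6 tested genes of cluster D had SDs of log2 CPM of 0.166 to 0.34, above the median of 0.154 over all tested genes. Counting error alone would give 0.0939 to 0.284 at their mean counts, the most for Hoxd3, whose SD was 0.298. Hoxd8 was at 13.8, 14.8 and 11.05 CPM in stressed animals 10, 11 and 13, against 13.5, 15.5 and 11.2 CPM in resting mice 15, 17 and 19, with the groups interleaved (log2 fold change -0.02 ± 0.15). Hoxd9 was at 8.04, 8.11 and 8.56 CPM in the stressed mice, against 5.25, 6.63 and 6.35 CPM in the resting mice, with no overlap (0.44 ± 0.15, edgeR adjusted p = 0.589). Hoxd10, which acts in lumbar motor neurons and the hind limb, was at 8.61, 8.38 and 8.68 CPM in the stressed mice, against 6.21, 8.56 and 7.46 CPM in the resting mice (0.21 ± 0.15), so that resting mouse 17 lay between the stressed mice. Hoxd11, known with Hoxa11 for the forearm and kidney, averaged 3.22 ± 1.08 CPM in the stressed group and 2.67 ± 0.428 CPM in the resting group.

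Hoxd4 averaged 6.84 ± 1.19 CPM in the stressed group and 6.92 ± 0.109 CPM in the resting group, and Hoxd3, which patterns the upper neck vertebrae, 1.4 ± 0.418 CPM among stressed and 1.54 ± 0.0469 CPM among resting mice. Annotated genes on the same strand, among them each other and Gm28230, overlap 62.4% of the exon length of Hoxd3 and 52.3% of that of Hoxd4, so how reads were divided between them is uncertain.

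Cluster C was barely expressed. Hoxc4, its 1 member with a mean of at least 1 CPM, was at 1.02, 0.327 and 2.18 CPM in stressed animals 10, 11 and 13, against 0.955, 1.29 and 0.663 CPM in resting mice 15, 17 and 19 (log2 fold change 0.26 ± 0.55, edgeR adjusted p = 0.952). Stressed mice held both the highest and the lowest value. Hoxc6 was at 1.02, 0.871 and 1.70 CPM in the stressed mice, from 20, 16 and 28 counts, against 0.836, 0.704 and 0.663 CPM in the resting mice, from 14, 12 and 12 counts (0.69 ± 0.35, edgeR adjusted p = 0.750). Its groups did not overlap, though stressed mouse 11 and resting mouse 15 were only a couple of counts apart. Hoxc10 had a log2 fold change of 0.74 ± 0.41 at 8 to 25 counts per library.

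RNAs that lie between or opposite the Hox genes were read in the same way. Hoxa11os, transcribed opposite Hoxa11, was at 3.53, 3.27 and 2.31 CPM in stressed animals 10, 11 and 13, against 13.8, 12.0 and 2.43 CPM in resting mice 15, 17 and 19 (log2 fold change -1.62 ± 0.49, edgeR adjusted p = 0.544). Its libraries stood in nearly the order of those of Hoxa13. Hottip, a long noncoding RNA beyond Hoxa13 that helps keep the tail end of the cluster active, had 0, 0 and 3 counts in the stressed mice, against 14, 10 and 0 counts in the resting mice. Evx1, the homeobox gene next to it, had 0 counts in each stressed mouse, against 13, 10 and 0 counts in the resting mice. Evx1os had 0 counts in the stressed mice, against 6, 3 and 0 counts in the resting mice. These genes beyond the tail end were thus detected almost only in mice 15 and 17.

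Nearer the head end of cluster A the picture was mixed. Hotairm1 had a log2 fold change of 0.62 ± 0.44, Hoxaas2, which was also highest in mice 15 and 17, -0.55 ± 0.28, and Hoxaas3 -0.50 ± 0.19. In clusters B and D the neighbouring RNAs were closer to 0. Hoxb5os was at 0.00 ± 0.13, Hoxb3os at 0.15 ± 0.32, Hoxd3os1 at -0.25 ± 0.22 and Haglr at -0.10 ± 0.30, and none of these 7 had an adjusted p under 0.05 in the edgeR fit. Hotair, in cluster C, had at most 5 counts, and Evx2, beside cluster D, had none in any library. Reads assigned to the cluster B miRNA gene Mir196a-1 numbered 298, 237 and 265 counts in stressed animals 10, 11 and 13, against 232, 244 and 248 counts in resting mice 15, 17 and 19, a log2 fold change of 0.08 ± 0.11. Poly(A) libraries do not capture mature miRNAs, and which transcripts these reads came from was not tested.

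Genes whose levels followed Hoxa13 over the 6 libraries were listed by Pearson correlation of log2 CPM, as a description with no test. Among 11525 genes with a mean of at least 5 CPM, the 5 most positive were Poglut1, Prkacb, Rftn2, Praf2 and Pcyox1, and the 5 most negative Ccl25, Fuca2, Tax1bp1, Eif4e3 and Dcaf12. Their correlations were 0.977 to 0.995 in size, but their own levels differed by only 1.07 to 1.51 times between the extreme libraries. With a minimum SD of log2 CPM of 0.5, a limit chosen after seeing the data, 125 genes remained. Of these Colec10 (r = 0.98), Hoxa11os (0.97), Aqp4 (0.95), Grem1 (0.93) and Ppm1j (0.87) were the most positive, and Fabp6 (-0.91), Ctla2a (-0.91), Acta1 (-0.90) and Ighg2b (-0.90) among the 5 most negative. Without resting mice 15 and 17, the 2 libraries farthest from the median of Hoxa13, these 9 correlations were 0.541 to 0.991 in size over 4 libraries.

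Colec10, a collectin, was at 7.33, 8.06 and 4.86 CPM in stressed animals 10, 11 and 13, against 14.6, 12.7 and 6.02 CPM in resting mice 15, 17 and 19. Grem1, a BMP antagonist made by stromal cells around the crypts, was at 5.64, 6.86 and 4.86 CPM in the stressed mice, against 10.6, 13.4 and 5.63 CPM in the resting mice. Aqp4, a water channel of the colonic epithelium, was at 95.5, 94.6 and 57.2 CPM in the stressed mice, against 222.4, 164.2 and 121.7 CPM in the resting mice (log2 fold change -1.04 ± 0.22, edgeR adjusted p = 0.278). Colec10 and Grem1 shared with Hoxa13 the place of resting mouse 19 among the stressed mice, whereas for Aqp4 mouse 19 stayed above them.

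**Figure D5:**
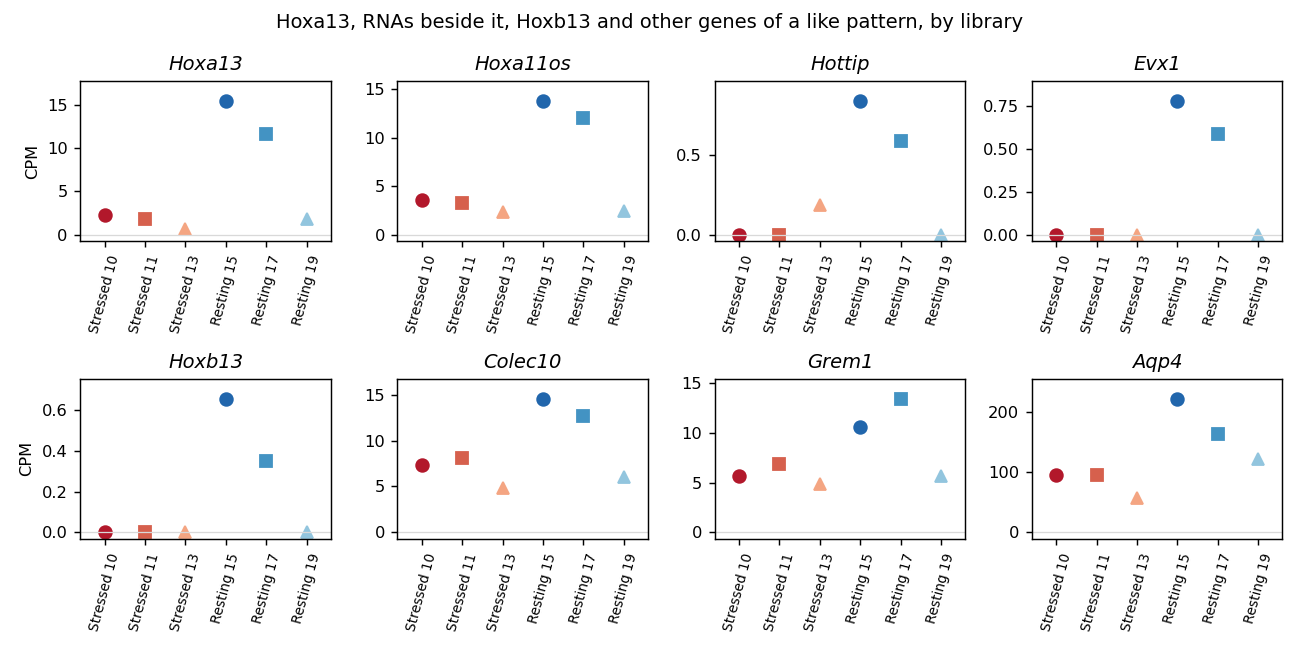
CPM in each of the 6 libraries (linear axes from 0, 1 panel per gene) of Hoxa13, of Hoxa11os, Hottip and Evx1 beside it, of Hoxb13, and of Colec10, Grem1 and Aqp4. In every panel resting mice 15 and 17 are the 2 highest libraries, and Evx1 and Hoxb13 are at 0 in the other 4.

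The other Hoxa genes followed Hoxa13 to different degrees over the same 6 libraries, which share depth and mouse. The correlation was 0.98 for Hoxa6, 0.96 for Hoxa9 and 0.95 for Hoxa7, and 0.11 for Hoxa4. For Hoxb4 it was -0.93 and for Hoxb9 0.45. The order of these genes changed without resting mice 15 and 17. Over the other 4 libraries the correlation was 0.92 for Hoxa6, 0.73 for Hoxa9, 0.99 for Hoxa7 and 0.59 for Hoxa4. For Hoxb4 it was then -0.97 and for Hoxb9 0.50. Most other cluster B genes moved further: Hoxb6 went from -0.79 over all 6 libraries to 0.91 over these 4. Hoxb5 went from -0.77 to 0.07, Hoxb8 from -0.69 to -0.02 and Hoxb7 from -0.42 to 0.13. Hoxb2 (-0.93 and -0.86) and Hoxb3 (-0.61 and -0.40) stayed below 0. For Hoxa3 it was 0.33 over these 4 libraries, against 0.93 over all 6, and for Hoxa10 0.47 against 0.94.

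The stretch just upstream of the gene start was read for letters that Hox and Cdx factors are known to bind. RefSeq promoter entries existed for 22 of the 39 members and for 9 of the 11 Hoxa genes, with 10 starts among these 9. In the 250 bases before the start, the Cdx motif TTTATNG was found on either strand in 0 of the 10 Hoxa stretches and in 9.81% of 32841 promoters, the motif TCGTAAA of tail-end Hox factors in 0 of 10 and 0.478%, and the Pbx-Hox motif TGATTNAT in 1 of 10, that of Hoxa2, and 2.83%. No other motif was searched, and the motifs do not contain each other. The stretches of Hoxa2 and Hoxa13 are shown because they stand near the head end and at the tail end of the cluster and have the smallest and the largest fold change of the tested Hoxa genes. They lie at chr6:52164832-52165081 and chr6:52260881-52261130 in GRCm38.p6 and are printed 5′ to 3′ on the minus strand, with CG in capitals.

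Hoxa2: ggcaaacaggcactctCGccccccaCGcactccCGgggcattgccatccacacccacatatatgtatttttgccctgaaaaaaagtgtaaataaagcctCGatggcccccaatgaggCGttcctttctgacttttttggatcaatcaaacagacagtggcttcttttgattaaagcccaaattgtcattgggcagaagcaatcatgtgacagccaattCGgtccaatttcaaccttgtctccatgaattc
Hoxa13: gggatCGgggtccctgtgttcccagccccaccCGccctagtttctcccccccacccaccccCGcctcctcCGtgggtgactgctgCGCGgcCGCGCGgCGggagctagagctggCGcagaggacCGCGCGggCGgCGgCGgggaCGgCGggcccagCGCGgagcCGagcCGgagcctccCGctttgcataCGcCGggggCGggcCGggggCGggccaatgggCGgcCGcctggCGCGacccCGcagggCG

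The Hoxa13 stretch held 35 CG and 80% G and C, the Hoxa2 stretch 6 CG and 46.4%. Over the Hoxa stretches the number of CG was 3 to 35, where the median promoter of the table held 6 with 52.4% G and C. CG-rich starts are typical of Hox genes and other genes under Polycomb control.

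Genes that work with or upstream of Hox genes were described as lists. Of the TALE homeodomain cofactors, the Pbx, Meis and related genes that bind DNA together with Hox proteins, 10 were tested, 5 higher and 5 lower in stressed mice, with a median log2 fold change of 0.01. Pbx3 had -0.36 ± 0.15 and Tgif1 -0.19 ± 0.12. Of the Cdx and other gut homeobox genes, 9 were tested, 6 higher and 3 lower with a median of 0.01; Cdx1, a direct regulator of Hox genes, averaged 334 ± 6.12 CPM in the stressed group and 331 ± 15.5 CPM in the resting group. Nkx2-2, which specifies enteroendocrine cells, had -0.37 ± 0.29.

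Retinoic acid turns on head-end Hox genes in the embryo. Of the genes of its pathway 13 were tested, 9 higher and 4 lower with a median of 0.07; Crabp1, a retinoic acid carrier, had 0.90 ± 0.45 and Aldh1a3, which makes retinoic acid, 0.24 ± 0.13. Polycomb and trithorax proteins hold Hox genes silent or active. Of these regulators 21 were tested, 8 higher and 13 lower with a median of -0.02. Kmt2a, the histone methyltransferase that maintains Hox expression, averaged 92.8 ± 6.35 CPM in the stressed group and 111 ± 13.2 CPM in the resting group (-0.26 ± 0.09, edgeR adjusted p = 0.601), and Kmt2d had -0.25 ± 0.09. The list of Hox antisense and opposite-strand RNAs also holds miRNA genes. Of this list 10 were tested, 4 higher and 6 lower with a median of -0.05. Among the 4 higher were the miRNA genes Mir196a-1 (0.08 ± 0.11) and Mir10a (0.45 ± 0.45). No gene of these 5 lists had an adjusted p under 0.05.

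The same holds for 2 short lists of genes used as markers of position along the colon and for 11 lists of cell type markers. Of the genes listed as distal 10 were tested, 5 higher and 5 lower, with Aqp8 at -1.06 ± 0.29 and Cyp2c55 at 0.36 ± 0.10, and Insl5 at -0.50 ± 0.34; Prac1 was not matched. Of those listed as proximal 10 were tested, 3 higher and 7 lower, with Aqp4 as above and the sucrase gene Sis at 1.02 ± 0.24. Of smooth muscle markers 9 were higher and 3 lower, of fibroblast markers 3 and 9, of epithelial markers 8 and 4, of enteric neuron markers 11 and 1, and of enteric glia markers 4 and 1. Endothelial markers had 2 higher and 6 lower, immune cell markers 0 and 10, and adipocyte markers 8 and 0. Of the skeletal muscle, squamous, and bladder and prostate lists 3, 1 and 4 genes were tested.

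Of the 18 lists, that of the antisense RNAs, which includes miRNA genes, was the 1 list whose sum was highest in resting mice 15 and 17. Its sum was 41.9 to 46.4 CPM in stressed mice, against 57.3, 57.1 and 45.2 CPM in resting mice 15, 17 and 19. That list holds Hoxa11os, at 2.31 to 3.53 CPM in stressed mice, against 13.8, 12.0 and 2.43 CPM in these resting mice. A sum without Hoxa11os was not taken. With the most abundant member of each list left out, a step added after seeing the data, the sums of 3 lists were highest in both, those of the antisense RNAs, the TALE cofactors, and the bladder and prostate markers. From the antisense RNAs this step took out Mir196a-1 and left Hoxa11os in. Fibroblast markers summed to 660.7, 883.2 and 950.5 CPM in stressed animals 10, 11 and 13, against 768.9, 1031 and 699.8 CPM in resting mice 15, 17 and 19, and smooth muscle markers to 3934 to 4534 CPM in the stressed group and 3498 to 4403 CPM in the resting group. Epithelial markers summed to 16403 to 16739 CPM in the stressed group and 15093 to 17475 CPM in the resting group. The sums of 5 lists were lowest in mice 15 and 17, those of gut homeobox genes, proximal markers, enteric neurons, enteric glia and skeletal muscle. Enteric neuron markers summed to 171.5, 169.0 and 152.0 CPM in the stressed mice, against 128.1, 145.0 and 159.0 CPM in the resting mice. Without their most abundant member 3 lists were lowest in both mice, those of enteric neurons, enteric glia and skeletal muscle. Car1, a carbonic anhydrase, made up 82.7% of the proximal sum. Without Car1 the proximal markers summed to 2242, 2221 and 1924 CPM in stressed animals 10, 11 and 13, against 2452, 2215 and 2362 CPM in resting mice 15, 17 and 19, with mouse 15 the highest. The part of these lists in the Hoxa values was not tested.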

How the data were processed

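Colon RNA of 6 mice was sequenced from stranded poly(A) libraries, per the labels' protocols. The authors deposited raw read counts per Ensembl gene, and fastp, HISAT2 and the mm10 build are named in the submitters' processing notes. Not given in the sources used here are the read counter, its annotation and its strand setting.

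Symbols were matched for 42462 of 43432 identifiers, and the 970 without one held 0.0988% to 0.105% of the counts of a library. Coordinates and exon lengths are from GENCODE M21 on mm10. Groups follow the treatment labels. The deposited counts were tested with edgeR 4.0.16 in R 4.3.3 (quasi-likelihood test, filterByExpr with minimum count 10 and minimum total 15, TMM factors 0.985 to 1.02, Benjamini-Hochberg adjustment over the 16119 tested genes, threshold 0.05) in a script checked on simulated counts. DESeq2 1.42.0, limma-voom (limma 3.58.1), other scalings and filters, and the fit without each mouse were the alternatives. Correlations used log2(CPM + 0.1).

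Members, lists and rules were chosen with earlier results of these data known. The rule for names takes all 39 members by count, those with a mean of at least 1 CPM with values, the group 13 genes, the 5 genes most and the 5 least correlated with Hoxa13, in each of 18 lists the 2 tested genes with the smallest p, and a few position markers and antisense RNAs; Hottip, Evx1, Evx1os, Evx2, Hotair and the miRNA genes were added after their values were seen. Homeoboxes were located by translating GENCODE transcripts, and promoters come from a RefSeq table on GRCm38.p6. Some named items are not reported here.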

Additional observations from a re-analysis of the deposited data

How the results depend on the processing

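Over all genes, 5 passed the threshold with edgeR and TMM scaling. The number was 151 without a filter on low counts, 56 with DESeq2 and 3 with limma-voom, and 1 to 14 with each mouse left out in turn. The number of Hox genes past the threshold, 0, became 5 without the filter, namely Hoxa6, Hoxa7, Hoxa9, Hoxa10 and Hoxa13 (edgeR adjusted p of 0.00523, 0.000455, 0.000657, 0.00295 and 1.03e-05), with nearly the same fold changes; the cause was not tested. With each mouse left out it was 0 to 1, the 1 being Hoxa13 without resting mouse 19. The log2 fold change of Hoxa13 was -2.64 to -2.25 over the other alternatives. No tested Hoxa gene changed sign in any fit. Leaving out 1 mouse turned the sign of 6 of the 27 tested Hox genes (Hoxb9, Hoxc4, Hoxd3, Hoxd4, Hoxd8 and Hoxd11), and other settings that of Hoxb9 and Hoxc4. The log2 ratio of the cluster A sums was -1.29 to -0.78 and that of cluster B 0.11 to 0.17 with a mouse left out, and with library totals in place of TMM -1.04 and 0.10.

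No paired analysis was possible because the groups share no replicate numbers. With 3 mice per group, 12 Hox genes had too few counts to test. The stretch of colon that was sampled is not given.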
